A study of Mus musculus with 20 samples.

Results

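A set of 10 genes that make or carry plasma lipoproteins was followed through kidney and liver of mice given the bromodomain inhibitor JQ1: Apoa1, Apoa2, Apoa4, Apoa5, Apob, Apoc1, Apoc3, Apoe, Apoh and Mttp. They were taken by symbol from the 55642 genes in the quantification files, of which 30897 had a read in at least 1 of the 20 libraries. All 10 were found. Of these, 9 passed the filter on low counts in kidney and all 10 passed it in liver. The member that failed in kidney was Apoa5, with a CPM of 0 in 5 of the 10 kidney libraries.

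The animals were male DBA/2J mice, an inbred strain with no engineered allele named in the labels. JQ1, which occupies the acetyl-lysine pockets of the BET family of proteins, was given at 50 mg/kg into the peritoneal cavity each day for 3 weeks, and vehicle was DMSO in a cyclodextrin solution on the same schedule. JQ1 treatment mice were 10 weeks old and taken at the end of dosing, and JQ1 recovery mice were 16 weeks old and taken 6 weeks after the last dose. There were 3 libraries of JQ1 treatment, 3 of JQ1 recovery and 4 of vehicle from each organ. Of the vehicle libraries, 3 came from the treatment time and 1 from the recovery time, and the study pooled them as the control. These groups, ages and times follow the labels of each library. The study's descriptions are not uniform: 1 gives a shorter recovery with more of the vehicle animals at the recovery time, and 1 counts untreated mice among the controls, so every control and same-age comparison rests on the labels. The age therefore differed between the JQ1 recovery group and 3 of its 4 controls, so drug withdrawal and age cannot be told apart in that comparison. All JQ1 treatment mice were also younger than all JQ1 recovery mice. Drug and age therefore cannot be told apart between these groups in either organ. Each library was counted as 1 animal, which no label states, so p-values measure the spread between these libraries.

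Apolipoproteins are the protein part of lipoproteins. Apob is the large structural protein of chylomicrons, VLDL and LDL, and Mttp loads lipid onto it in the endoplasmic reticulum, without which neither can leave the cell. Apoa1 and Apoa2 build HDL. Apoe, Apoc1, Apoc3, Apoa4 and Apoa5 sit on the surface of particles, where Apoe binds receptors, Apoc3 slows and Apoa5 speeds the hydrolysis of triglyceride, and Apoc1 and Apoa4 exchange between particles. Apoh, or beta-2-glycoprotein I, is a plasma protein that binds anionic phospholipids. Hepatocytes are the main source of most of them, and Apoa4 is chiefly an intestinal product in the mouse. The kidney also secretes lipoproteins that carry Apob and clears filtered apolipoproteins through proximal tubule receptors. BET inhibitors are known to raise APOA1 in human liver cells.

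The libraries held 13952510 to 26895318 assigned reads in kidney and 11968500 to 17529910 in liver. The liver libraries JQ1 recovery replicates 2 and 3 contained kidney transcripts: 15 kidney epithelium markers summed to 5380 and 2968 CPM there, against 25.3 CPM in JQ1 recovery replicate 1, 1.02 to 1.12 CPM in JQ1 treatment livers and 1.26 to 4.49 CPM in vehicle livers. In kidney the same markers summed to between 19361 and 29289 CPM. Results of the JQ1 recovery livers are therefore given with and without these libraries. The albumin gene Alb had 223238 reads or more in each liver library and 526 or fewer in each kidney library.

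In vehicle livers the 10 genes made up 2.83% ± 0.10 of all assigned reads (SD, n = 4), and in vehicle kidneys 0.0181% ± 0.00093 (SD, n = 4). Levels between genes were compared as TPM, which corrects for transcript length. By TPM the small HDL and exchangeable apolipoproteins led in liver. By share of member reads, with no correction for length, Apoe led there. It held 35.2%, ahead of Apoa2 at 20.2%, Apoa1 at 17.1% and Apoc1 at 14.1%. The levels that follow are TPM. Apoa2 stood at 10538 ± 959 TPM and Apoc1 at 10313 ± 948 TPM, and their ranges over the 4 vehicle livers overlapped. Apoe followed at 4044 ± 349 TPM, Apoa1 at 2892 ± 193 TPM, Apoc3 at 1451 ± 214 TPM, Apoh at 619 ± 56.9 TPM and Apoa5 at 80.5 ± 21.7 TPM, with no overlap between neighbours. The structural protein and its loading factor were far lower per length, with Apob at 25.0 ± 2.97 TPM, Apoa4 at 16.5 ± 8.67 TPM and Mttp at 10.9 ± 0.92 TPM, and here neighbouring ranges overlapped.

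The order by TPM in kidney was different, while by reads Apoe led there too, with 68.3% of member reads. Apoe led at 77.9 ± 9.80 TPM in vehicle kidneys, followed by Apoc1 at 22.8 ± 3.42 TPM, both clear of their neighbours. Apoc3 (9.10 ± 2.21 TPM), Apoh (7.78 ± 4.72), Apoa2 (5.93 ± 7.96), Mttp (3.48 ± 0.57), Apoa1 (1.50 ± 1.17), Apob (0.941 ± 0.123) and Apoa4 (0.651 ± 0.174) formed a run in which each range overlapped the next. Apoa5 had reads in 1 of the 4 vehicle kidneys. The mean liver level exceeded the mean kidney level 1932 times for Apoa1 and 1777 times for Apoa2, 452 times for Apoc1, 160 times for Apoc3, 79.6 times for Apoh, 51.9 times for Apoe, 26.6 times for Apob and 25.3 times for Apoa4. Mttp had the smallest gap, 3.14 times. The lowest vehicle liver lay above the highest vehicle kidney for all 10 genes.

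**Figure D1:**
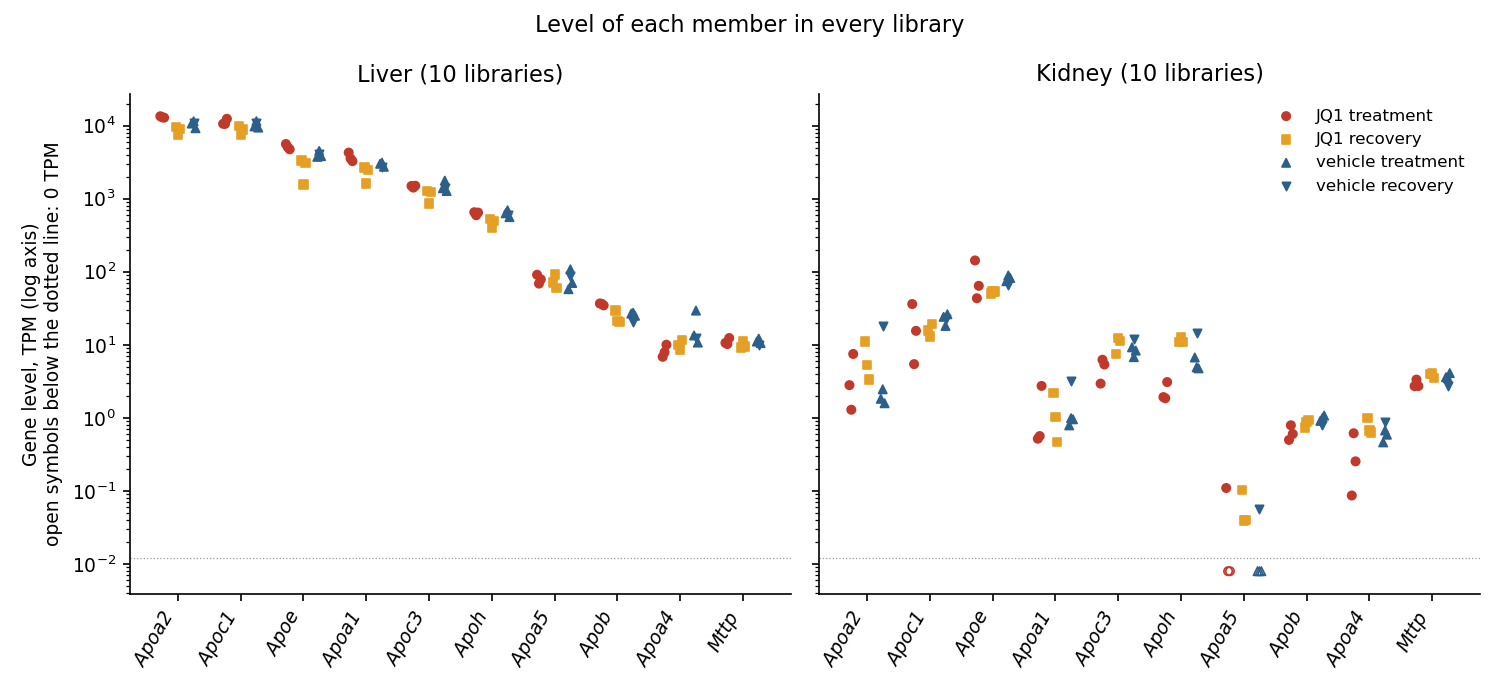
Levels of the 10 genes in TPM (log axis) in liver and kidney, each point 1 library, with colour and shape for JQ1 treatment, JQ1 recovery, vehicle treatment and vehicle recovery; open symbols under the dotted line are libraries at 0. Among vehicle libraries Apoa2 and Apoc1 lead in liver with means of 10538 and 10313 TPM, Apoe leads in kidney at 77.9 TPM, and Mttp has the narrowest gap between the organs.

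Salmon divided the reads of each gene among 1 to 11 annotated transcripts. Mttp was divided differently in the 2 organs. Its coding transcript Mttp-201 and a transcript annotated as a retained intron, Mttp-203, shared the gene, and Mttp-203 took 5.40% ± 1.92 of the Mttp TPM over the 10 liver libraries but 51.7% ± 4.1 over the 10 kidney libraries (SD). The libraries ran from 2.51% to 8.39% in liver and from 43.4% to 58.9% in kidney, with no overlap. As a share of reads the means were 2.65% in liver and 33.8% in kidney. Gene values of Mttp sum its transcripts, so the 3.14 times gap between organs is not that of the coding transcript. Mttp-201 alone stood at 9.658 to 11.62 TPM in vehicle livers and 1.180 to 1.970 TPM in vehicle kidneys. The share of Mttp-203 in kidney was 51.2% ± 7.7 in JQ1 treatment, 51.5% ± 0.99 in JQ1 recovery (SD, n = 3 each) and 52.2% ± 3.2 in vehicle libraries (SD, n = 4). In liver, Apoa2 was split between 2 coding transcripts, Apoa2-204 with 51.6% ± 0.97 and Apoa2-201 with 47.9% ± 1.0 of its TPM.

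The kidney comparisons asked what 3 weeks of JQ1 changed in an organ outside the testis, and whether it was back after withdrawal. Values per library are CPM, the reads of a gene relative to the assigned reads of its library, scaled with the TMM factors of the organ. A gene was called when its adjusted p was under 0.05 in edgeR's quasi-likelihood test with Benjamini-Hochberg adjustment over all genes tested in that comparison. At the end of dosing 1 of the 9 members tested, Apob, was called in kidney, against 4.13% of all 17158 genes tested, and DESeq2 called 2 (Apob and Apoh) against 6.07%. Of the 9 fold changes 8 were below 0, with a median of -0.44 on the log2 scale, and the median of all genes was -0.01.

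Apob fell in JQ1 treatment kidneys. Because the result turns on it, the 250 bases before its annotated start are shown (RefSeq, GRCm38.p6, chr12:7977427-7977676, plus strand), next to those of Apoh (chr11:108395047-108395296, plus strand), the member with the largest kidney difference. Capitals mark matches to the motifs searched on both strands of windows running 250 bases before to 50 after the start.
Apob: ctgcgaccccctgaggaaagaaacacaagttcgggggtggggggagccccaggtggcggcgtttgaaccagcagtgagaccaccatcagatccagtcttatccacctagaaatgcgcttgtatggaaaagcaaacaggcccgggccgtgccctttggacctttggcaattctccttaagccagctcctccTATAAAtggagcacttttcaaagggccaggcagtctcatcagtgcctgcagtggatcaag
Apoh: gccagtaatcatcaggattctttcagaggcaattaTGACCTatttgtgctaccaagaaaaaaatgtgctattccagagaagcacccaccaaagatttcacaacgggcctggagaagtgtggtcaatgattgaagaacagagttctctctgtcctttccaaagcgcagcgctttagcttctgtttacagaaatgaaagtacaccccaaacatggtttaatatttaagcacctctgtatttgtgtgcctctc
The Apob window held the TATA box sequence TATAAA on the gene's own strand, its first base at position -60 from the start. The Apoh window held the nuclear receptor half-site AGGTCA on the opposite strand at -215, which reads TGACCT as printed. No other match to these motifs lay in either window, nor to AAGTCC, part of an HNF4 site, nor to the HNF1 half-site GTTAAT. Of 32851 mouse promoters of this length the TATA box sequence lay in 13.6%, the nuclear receptor half-site in 16.3%, the HNF4 part in 14.8% and the HNF1 half-site in 7.10%. Windows were found for 8 of the members, 12 windows in all, and the other two are Apoc1 and Apoc3. The Apoa1, Apoa4 and Mttp windows had no match, and the Apoa2, Apoa5 and Apoe windows each had at least 1 in some window.

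Apob stood at 10.5, 10.5 and 12.2 CPM in JQ1 treatment kidneys, 14.0, 16.0 and 17.7 CPM in JQ1 recovery kidneys, and 16.6, 18.3 and 19.6 CPM in vehicle treatment kidneys, with 14.4 CPM in the vehicle recovery kidney. The 3 JQ1 treatment kidneys were the lowest of the 10 and overlapped neither other group. The difference from vehicle was -0.64 ± 0.13 on the log2 scale (SE), 35.9% lower, with an adjusted p of 0.0064 in edgeR's test. In a bulk library, fewer cells that express a gene and less of its RNA per cell cannot be told apart. Against the vehicle treatment kidneys alone, of the same age, where 3.50% of all genes were called, the difference was -0.72 ± 0.13 (adjusted p = 0.0029, edgeR), and in DESeq2 -0.64 ± 0.15 (adjusted p = 7.13e-04). The call was lost with length-scaled TPM counts, where the difference was -0.43 ± 0.16 (adjusted p = 0.20, edgeR). The long transcript Apob-202 held all Apob reads in 8 kidney libraries, 92.0% of the reads and 61.9% of the TPM in JQ1 treatment replicate 2, and 67.3% of the reads and 66.4% of the TPM in vehicle treatment replicate 2. The part of this split in the lost call was not tested. At 6 weeks after dosing, Apob differed from vehicle by -0.12 ± 0.13 (adjusted p = 0.84, edgeR). Against JQ1 recovery kidneys the JQ1 treatment kidneys were lower by -0.53 ± 0.14 (adjusted p = 0.024, edgeR), a call lost without JQ1 treatment replicate 1 (adjusted p = 0.065) or 2 (0.066), or without JQ1 recovery replicate 2 (0.080) or 3 (0.12).

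Apoh had the largest kidney difference among the members at the end of dosing. It stood at 2.78, 2.50 and 4.30 CPM in JQ1 treatment kidneys, 14.1, 15.6 and 14.3 CPM in JQ1 recovery kidneys, and 8.42, 6.31 and 5.94 CPM in vehicle treatment kidneys, with 18.5 CPM in the vehicle recovery kidney. All JQ1 treatment kidneys lay below every other kidney. The 4 kidneys of 16 weeks of age, with or without JQ1 in the past, lay above the 6 of 10 weeks. Against the pooled control the difference was -1.63 ± 0.45 on the log2 scale (adjusted p = 0.092, edgeR), which missed the threshold. It was called in DESeq2 (-1.61 ± 0.44, adjusted p = 0.0069) and against the vehicle treatment kidneys of the same age (-1.11 ± 0.20, adjusted p = 0.0039, edgeR). JQ1 recovery differed from the pooled control by 0.58 ± 0.39 (adjusted p = 0.71, edgeR), by 1.10 ± 0.19 without the vehicle recovery kidney (adjusted p = 0.0063), and by -0.34 ± 0.24 from the vehicle recovery kidney alone (adjusted p = 1.00).

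The 3 members called between JQ1 treatment and JQ1 recovery kidneys were Apob, Apoh and Apoc3, all lower in JQ1 treatment, 3 of 9 against 7.31% of all genes tested (4.91% lower), and DESeq2 called 3 of 9 against 9.79%. Apoh differed by -2.21 ± 0.46 (adjusted p = 0.025, edgeR), 78.4% lower. That call was lost when JQ1 treatment replicate 1 or 2 or any JQ1 recovery replicate was left out, with adjusted p values of 0.066 to 0.11 at differences of -2.24 to -2.04. Apoc3, an inhibitor of triglyceride clearance, stood at 1.95, 4.11 and 3.59 CPM in JQ1 treatment kidneys and 4.53, 6.99 and 7.15 CPM in JQ1 recovery kidneys. In vehicle treatment kidneys Apoc3 stood at 5.66, 4.19 and 5.08 CPM, with 7.25 CPM in the vehicle recovery kidney. Its JQ1 treatment values lay below all others, the highest by a small margin. The difference was -0.93 ± 0.27 from JQ1 recovery (adjusted p = 0.045, edgeR) and -0.76 ± 0.26 from vehicle (adjusted p = 0.11). Against the vehicle treatment kidneys of the same age Apoc3 was not called either. The call against JQ1 recovery held in 9 of 19 alternative settings, and without JQ1 treatment replicate 1 the difference was -0.69 (adjusted p = 0.13).

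**Figure D2:**
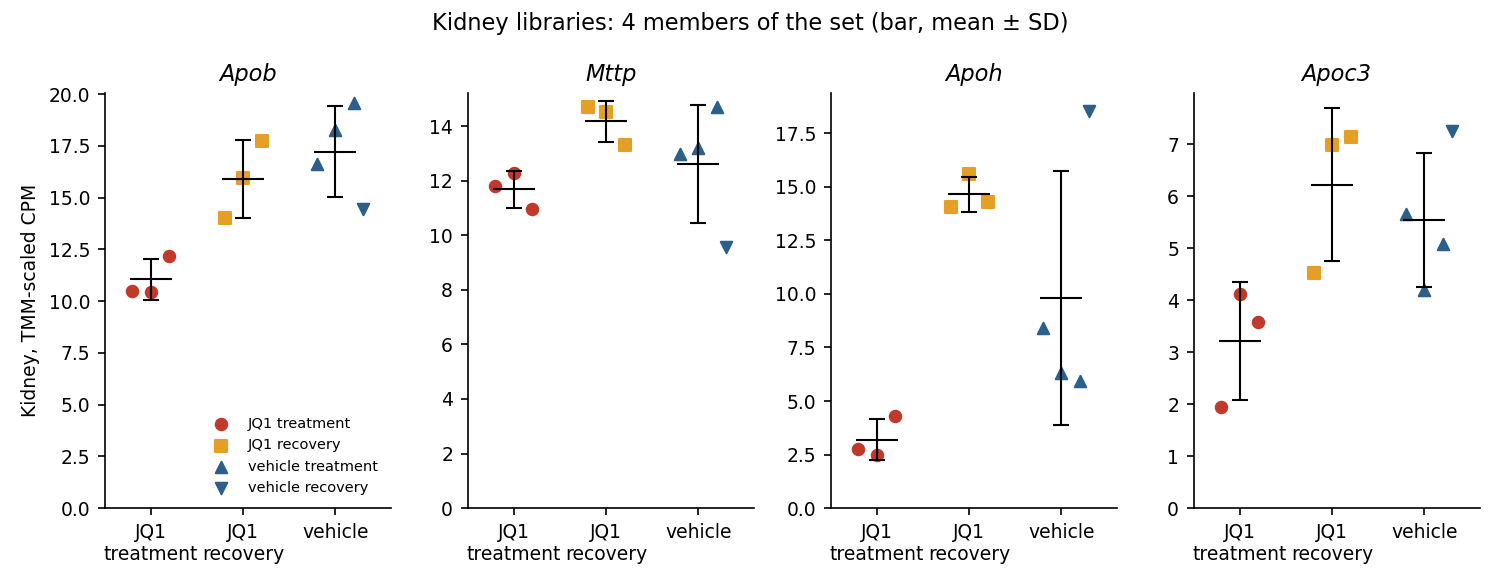
Kidney TMM-scaled CPM of Apob, Mttp, Apoh and Apoc3 by group (JQ1 treatment, JQ1 recovery, vehicle), each point 1 library, the long horizontal line the group mean and the bars 1 SD, with the vehicle recovery kidney as a downward triangle. Apob, Apoh and Apoc3 are lowest in the 3 JQ1 treatment kidneys, with Apob at 10.5 to 12.2 CPM there, and the vehicle recovery kidney is the highest for Apoh at 18.5 CPM.

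Between JQ1 treatment and vehicle kidneys 3 of the 9 members did not overlap, all lower (Apob, Apoc3 and Apoh), where 15.2% of all genes tested did not (8.31% lower). Between JQ1 treatment and JQ1 recovery it was 4 of 9, all lower (the same 3 and Mttp), where 27.2% of all genes did not (14.7% lower). Mttp, the partner of Apob in particle assembly, stood at 11.8, 12.3 and 11.0 CPM in JQ1 treatment kidneys, 14.7, 14.5 and 13.3 CPM in JQ1 recovery kidneys and 9.56 to 14.7 CPM in vehicle kidneys. It differed from vehicle by -0.11 ± 0.14 (adjusted p = 0.76, edgeR). Its coding transcript Mttp-201 stood at 1.331 to 1.426 TPM in JQ1 treatment kidneys and 1.735 to 1.976 TPM in JQ1 recovery kidneys. In vehicle treatment kidneys Mttp-201 stood at 1.727 to 1.970 TPM, with 1.180 TPM in the vehicle recovery kidney. Mttp-203 overlapped between JQ1 treatment and vehicle kidneys, and neither transcript was tested alone. Apoa4 had 0.209, 1.38 and 0.589 CPM in JQ1 treatment kidneys, 1.37 to 2.15 CPM in JQ1 recovery kidneys and 0.966 to 1.84 CPM in vehicle kidneys, and its difference from vehicle of -0.82 ± 0.46 was not called (adjusted p = 0.40). In the JQ1 treatment kidneys the kidney epithelium markers summed to 19361 to 20387 CPM, and in JQ1 recovery kidneys to 27976 to 28842 CPM. In vehicle treatment kidneys they summed to 20277 to 23981 CPM, which overlapped JQ1 treatment, and in the vehicle recovery kidney to 29289 CPM. All kidneys of the recovery time, with or without JQ1, thus lay above all kidneys of the treatment time for these markers. Within that list the proximal tubule phosphate transporter Slc34a1 rose (0.45 ± 0.07 on the log2 scale) while Umod, of the thick ascending limb, and the androgen-dependent Kap fell (-0.76 ± 0.13 and -0.57 ± 0.14). Their part in the Apob and Apoh values was not tested.

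Apoe and Apoc1, which macrophages also express, rested on 1 library. Apoe stood at 253.6, 72.1 and 110 CPM in JQ1 treatment kidneys, 80.1, 82.1 and 86.2 CPM in JQ1 recovery kidneys and 103 to 141 CPM in vehicle kidneys. JQ1 treatment replicate 1 was far above all others and replicate 2 below them all. In that replicate 1 the 14 macrophage markers summed to 518 CPM, against 70.5 and 124 CPM in the other JQ1 treatment kidneys, 79.8 to 98.5 CPM in JQ1 recovery kidneys and 76.7 to 115 CPM in vehicle kidneys. Of the 14, 9 were highest in that library, led by Lyz2 at 340 CPM, with Adgre1 at 5.91 CPM and Cd68 at 11.8 CPM, and Clec4f was at 0 in every kidney. Csf1r, the 1 marker of the list called, was lower in all JQ1 treatment kidneys (14.4 to 22.3 CPM, that library at 22.3) than in vehicle kidneys (23.1 to 27.2 CPM). The 11 adipocyte markers, all detected in every kidney, summed to 797 CPM there and 10 of them were highest there, against 113 and 285 CPM in the other JQ1 treatment kidneys, 115 to 118 CPM in JQ1 recovery kidneys and 151 to 448 CPM in vehicle kidneys. The part of these cells in the Apoe level was not tested. The Apoe difference from vehicle was 0.26 ± 0.39 (adjusted p = 0.81, edgeR) with replicate 1 and -0.42 without it. Apoc1 differed by -0.15 ± 0.52 (adjusted p = 0.93), with 9.81 CPM in replicate 1, 1.42 and 4.18 CPM in the other JQ1 treatment kidneys and 4.50 to 6.35 CPM in vehicle kidneys.

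JQ1 recovery kidneys had no member called against vehicle in edgeR, against 0.00583% of all genes tested, none (0 of 9, against 9.16% of all genes) at an unadjusted p under 0.05 and 0 in DESeq2, against 0.600% there. The comparison shares its vehicle libraries with that of JQ1 treatment. Apoe, lower in all 3 JQ1 recovery kidneys than in any vehicle kidney, was the 1 member of 9 with no overlap, where 10.5% of all genes had none (5.20% lower). Its difference was -0.55 ± 0.40 (adjusted p = 0.74, edgeR), and it was called when the JQ1 treatment libraries were left out of the fit. Leaving out the vehicle recovery kidney called Apoh.

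The HDL proteins Apoa1 and Apoa2 were highest in the 3 kidneys with the most albumin reads. Apoa1 stood at 0.626, 0.635 and 3.18 CPM in JQ1 treatment kidneys, 2.38, 1.07 and 0.515 CPM in JQ1 recovery kidneys, 0.828, 1.06 and 0.998 CPM in vehicle treatment kidneys and 3.41 CPM in the vehicle recovery kidney. Its 3 high libraries, JQ1 treatment replicate 3, JQ1 recovery replicate 1 and vehicle recovery replicate 1, were those with the most Alb, 482, 270 and 526 reads against 63 to 207 reads in the others. Among those others Apoa1 did not follow Alb. JQ1 recovery replicate 3, with 207 Alb reads, had the lowest Apoa1 of all kidneys, 0.515 CPM. Set against 100 Alb reads of the same library, Apoa1 had 10.9 to 14.0 reads in liver (median 12.2) and 4.35 to 27.0 in kidney (median 15.2), and Apoa2 had 11.4 to 19.6 in liver (median 15.0) and 10.4 to 25.8 in kidney (median 14.6). For these 2 genes the kidney ratios therefore spread around the liver ratio. The other members with reads in every kidney lay above it. The median per 100 Alb reads was 24.4 in liver and 1443 in kidney for Apoe, 0.209 in liver and 202 in kidney for Mttp, 1.98 in liver and 201 in kidney for Apob, 3.06 in liver and 105 in kidney for Apoh, and 3.48 in liver and 79.3 in kidney for Apoc3. It was 10.1 in liver and 41.9 in kidney for Apoc1, and 0.107 in liver and 15.9 in kidney for Apoa4. The 20 hepatocyte markers, Alb included, summed to 1060, 947.5 and 1021 CPM in JQ1 treatment replicate 3, JQ1 recovery replicate 1 and vehicle recovery replicate 1. In the other kidneys they summed to 539.4 to 930.5 CPM, highest in JQ1 treatment replicate 1. This sum set the 3 kidneys apart by a small margin only. The part of liver RNA in the kidney values was not tested. Neither HDL gene was called in kidney. Apoa1 differed from vehicle by -0.12 ± 0.75 and Apoa2 by -0.44 ± 1.05 in JQ1 treatment kidneys (adjusted p = 0.96 and 0.89, edgeR), and both signs turned without the vehicle recovery kidney, to 0.60 and 1.14. Apob and Apoh were called without the 2 kidneys with the most Alb, at -0.79 ± 0.14 and -1.38 ± 0.21 (adjusted p = 0.0068 and 0.0017, edgeR). Of the kidneys left out, JQ1 treatment replicate 3 was the highest of its group for both genes. The vehicle recovery kidney was the lowest vehicle kidney for Apob and the highest for Apoh. The size of these differences depends on that choice, and the share of all genes called in this fit is not given here.

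**Figure D3:**
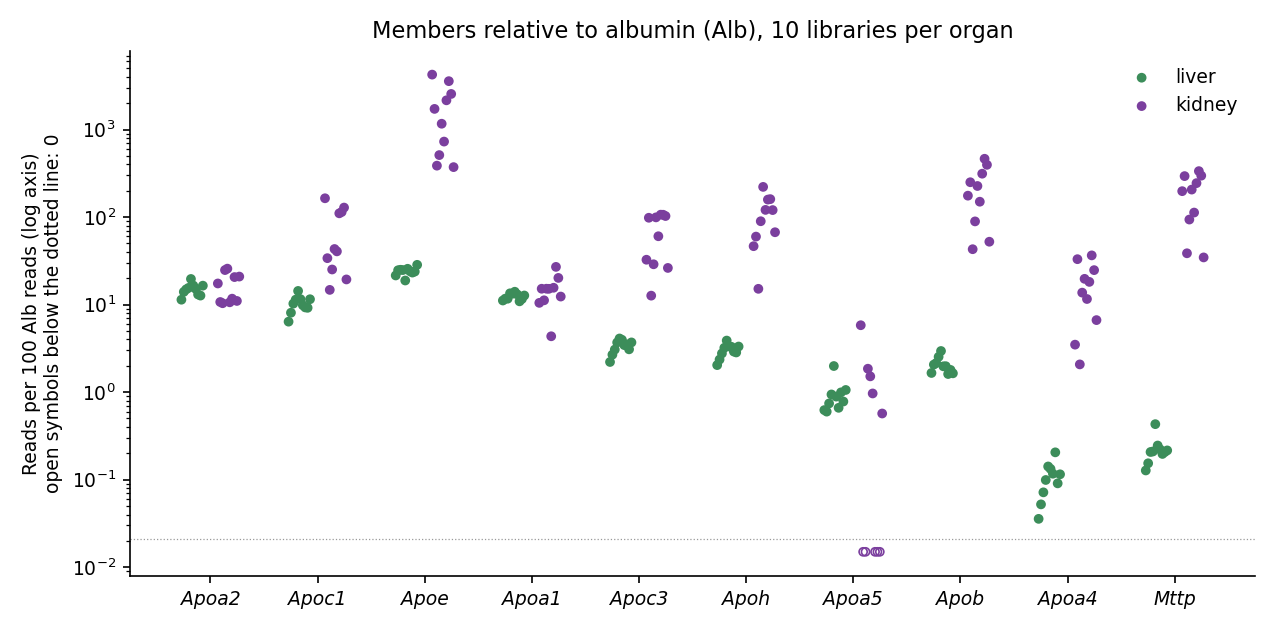
Reads of members per 100 Alb reads of the same library (log axis), each point 1 of the 10 libraries of an organ. Liver and kidney overlap for Apoa1 (median 12.2 in liver, 15.2 in kidney) and Apoa2 (15.0 in liver, 14.6 in kidney), while Apoe, Apob, Mttp, Apoh and Apoc3 are far higher per Alb read in kidney.

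Around the members, further genes of lipoprotein assembly fell in JQ1 treatment kidneys. Of 22 assembly and secretion genes tested 3 were called, all lower, against 4.13% of all genes, with a list median of -0.02 (all genes -0.01). Pla2g12b, which acts with Mttp in the growth of Apob particles, stood at 0.417, 0.336 and 0.412 CPM in JQ1 treatment kidneys, 1.05, 2.19 and 2.40 CPM in JQ1 recovery kidneys and 1.13 to 2.76 CPM in vehicle kidneys. Its JQ1 treatment values lay below all others, and the difference from vehicle was -2.26 ± 0.44 (adjusted p = 0.0051, edgeR). At this low level those values rest on few reads per library. Cideb is a lipid droplet protein needed to lipidate VLDL. It stood at 97.0, 111 and 131 CPM in JQ1 treatment kidneys and 217 to 230 CPM in JQ1 recovery kidneys. In vehicle treatment kidneys Cideb stood at 182 to 204 CPM, with 210 CPM in the vehicle recovery kidney. It fell by 0.81 on the log2 scale (SE 0.09, adjusted p = 1.94e-05, edgeR) with no overlap. Aadac, a lipase that mobilises stored triglyceride, had -0.33 ± 0.08 (adjusted p = 0.029), and was not called against the vehicle treatment kidneys alone (adjusted p = 0.065).

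The other lists of this comparison are read against the same 4.13%. Of 12 lipolysis and remodelling genes tested in kidney, Angptl4, an inhibitor of lipoprotein lipase, rose and the protease Furin fell. Angptl4 stood at 22.3, 14.6 and 16.5 CPM in JQ1 treatment kidneys, 5.58, 6.24 and 8.29 CPM in JQ1 recovery kidneys and 8.19 to 11.3 CPM in vehicle kidneys, a difference of 0.93 ± 0.17 from vehicle (adjusted p = 0.0025, edgeR). The JQ1 treatment kidneys were the 3 highest. Furin had -0.32 ± 0.09 (adjusted p = 0.0496). Of 20 receptor and uptake genes 2 were called, both higher: Amn, a partner of cubilin, at 0.31 ± 0.07 and the scaffold Pdzk1 at 0.31 ± 0.08. Of 8 efflux genes Npc2, a cholesterol carrier of lysosomes, was called at 0.31 ± 0.08. None of 8 other apolipoproteins tested was called in edgeR. Of 28 regulators of these genes 1 was called, the oxysterol receptor Nr1h3 (LXR alpha), at -0.57 ± 0.13 (adjusted p = 0.013, edgeR). Nr1h3 stood at 15.3, 20.7 and 20.8 CPM in JQ1 treatment kidneys and 33.5 to 37.7 CPM in JQ1 recovery kidneys. In vehicle treatment kidneys Nr1h3 stood at 23.0 to 29.0 CPM, with 32.9 CPM in the vehicle recovery kidney. Its JQ1 treatment values lay below all others. All kidneys of the recovery time, with or without JQ1, lay above all kidneys of the treatment time. No gene of these lists was called between JQ1 recovery and vehicle kidneys.

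Between JQ1 treatment and JQ1 recovery kidneys the same assembly genes and others were called, 6 of 22, of which 4 were lower and 2 higher, where 7.31% of all genes were called. Cideb differed by -0.97 ± 0.09, Pla2g12b by -2.28 ± 0.46, Aadac by -0.36 ± 0.09 and the cargo receptor Surf4, which moves lipoproteins out of the endoplasmic reticulum, by -0.34 ± 0.09. The phospholipid enzyme Lpcat3 was higher by 0.31 ± 0.08 and Lpin2 by 0.27 ± 0.08. Against the same 7.31%, 5 of 12 genes of the lipolysis list were called, among them Angptl4 (1.40 ± 0.18), which was higher, and Furin (-0.49 ± 0.09), Lpl (-0.50 ± 0.12) and its maturation factor Lmf1 (-0.68 ± 0.15), which were lower. Among 28 regulators 3 were called: Nr1h3 (-0.88 ± 0.13) and Rxra (-0.29 ± 0.08) were lower and Ppara (0.34 ± 0.09) was higher, and Npc2 was higher by 0.37 ± 0.08.

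**Figure D4:**
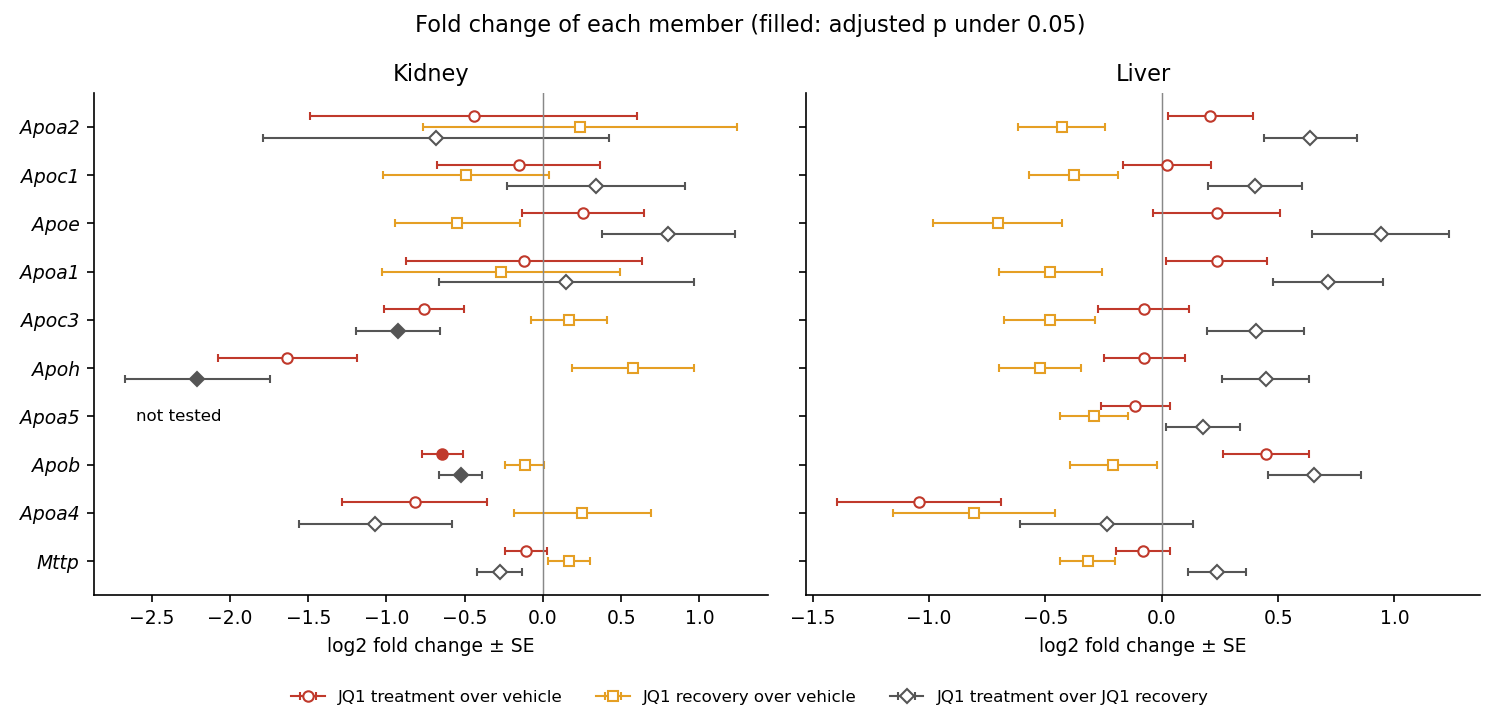
Log2 fold change of each member with its standard error in kidney and liver, for JQ1 treatment against vehicle, JQ1 recovery against vehicle and JQ1 treatment against JQ1 recovery; filled points have an adjusted p under 0.05 and Apoa5 was not tested in kidney. Filled points are Apob at -0.64 and -0.53 and Apoh at -2.21 and Apoc3 at -0.93 in kidney, and none in liver, where all 10 JQ1 recovery values are below 0.

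In liver, the organ that makes most of these proteins, no member was called at the end of dosing in edgeR, against 0.495% of all 14559 genes tested, 2 of 10 had an unadjusted p under 0.05 (9.53% of all genes), and DESeq2 called 1, Apoa4, against 1.95%. The members split evenly, 5 above and 5 below 0, with a median of -0.03 on the log2 scale (all genes 0.00). Between JQ1 treatment and vehicle livers 5 of 10 did not overlap (Apoa1, Apoa2, Apob and Apoe higher, Apoa4 lower), where 12.9% of all genes tested did not (6.79% higher and 6.13% lower). The 20 hepatocyte markers summed to 112730 to 123968 CPM in JQ1 treatment livers and 94906 to 99047 CPM in vehicle livers, and Alb stood at 47734 to 54180 CPM in JQ1 treatment livers and 36713 to 43677 CPM in vehicle livers. Per 100 Alb reads Apoa1 had 11.1 to 11.7 reads in JQ1 treatment livers and 10.9 to 13.1 in vehicle livers, and Apob 1.66 to 2.15 in JQ1 treatment livers and 1.61 to 1.98 in vehicle livers, so that both overlapped. Apoa2 had 11.4 to 14.9 reads in JQ1 treatment livers and 12.7 to 16.5 in vehicle livers, and Apoe 21.5 to 25.0 in JQ1 treatment livers and 23.2 to 28.5 in vehicle livers, again with overlap. On this scale Apoa4 had 0.0357 to 0.0717 reads in JQ1 treatment livers and 0.0908 to 0.205 in vehicle livers, without overlap. Together the 10 took 3.00%, 3.05% and 3.13% of the reads in JQ1 treatment livers and 2.73% to 2.93% in vehicle livers.

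Apob had the opposite sign in liver, where it was not called with all libraries. It stood at 897, 1034 and 1027 CPM in JQ1 treatment livers, 857, 445 and 576 CPM in JQ1 recovery livers and 805, 704, 779 and 603 CPM in vehicle livers. Each JQ1 treatment liver was above each vehicle liver. The difference was 0.45 ± 0.18 (adjusted p = 0.45, edgeR) with all libraries in the fit, and it was called at 0.44 ± 0.10 without JQ1 recovery replicates 2 and 3 (adjusted p = 0.018, where 2.30% of all genes were called) and at 0.44 ± 0.10 with the JQ1 treatment and vehicle livers alone (adjusted p = 0.020). Against the vehicle treatment livers of the same age it was 0.37 ± 0.20 (adjusted p = 0.65).

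Apoa4 had the largest difference in liver, at 19.3, 26.2 and 34.2 CPM in JQ1 treatment livers, 33.6, 21.3 and 38.8 CPM in JQ1 recovery livers and 47.6, 89.7, 39.4 and 42.3 CPM in vehicle livers. Both JQ1 groups lay below all vehicle livers, 1 of which was far above the rest. The JQ1 treatment difference was -1.04 ± 0.35 (adjusted p = 0.38, edgeR) and -1.05 ± 0.29 in DESeq2 (adjusted p = 0.026). Apoa1, the gene raised by BET inhibitors in human cells, stood at 6036, 5859 and 5577 CPM in JQ1 treatment livers and 5332, 4761, 5027 and 4666 CPM in vehicle livers, without overlap. Its difference of 0.24 ± 0.22 was not called (adjusted p = 0.82, edgeR), and without JQ1 recovery replicates 2 and 3 it was 0.23 ± 0.08 (adjusted p = 0.22). Apoe stood at 11664, 12368 and 11934 CPM in JQ1 treatment livers and 9785 to 10452 CPM in vehicle livers, a difference of 0.24 ± 0.27 (adjusted p = 0.86). Apoa2 differed by 0.21 ± 0.18 (adjusted p = 0.80), its lowest JQ1 treatment liver at 6166 CPM and its highest vehicle liver at 6162 CPM. The other members, Apoa5, Apoc1, Apoc3, Apoh and Mttp, lay between -0.11 and 0.02 with adjusted p values of 0.88 to 0.99.

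In JQ1 recovery livers all 10 members were below vehicle, from -0.81 (Apoa4) to -0.21 (Apob), with a median of -0.45 (all genes 0.02). None was called in edgeR, against 0.0343% of all genes tested, with adjusted p values of 0.17 to 0.63, 7 had an unadjusted p under 0.05 (16.7% of all genes), and DESeq2 called 0 against 4.55%. Of the 10, 8 did not overlap with vehicle, where 11.6% of all genes did not (6.13% lower). Apoe stood at 8401, 2841 and 7495 CPM in JQ1 recovery livers and 9785 to 10452 CPM in vehicle livers, and Apoa1 at 4555, 2005 and 4097 CPM in JQ1 recovery livers and 4666 to 5332 CPM in vehicle livers. The hepatocyte markers summed to 37609 to 84193 CPM in JQ1 recovery livers and 94906 to 99047 CPM in vehicle livers. Replicate 2, with the most kidney transcripts, was the lowest JQ1 recovery liver for both, and replicate 1, with the least, was the highest. The 10 members took 2.58%, 1.49% and 2.41% of the reads of these libraries in order of replicate.

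These values depended on which JQ1 recovery livers were used. Without replicate 1, 6 members were called (Apoa1, Apoa2, Apob, Apoc3, Apoe and Apoh), as were 13.6% of all genes tested. Without replicates 2 and 3, leaving 1 JQ1 recovery liver that is assumed to vary like the other groups, the members ran from -0.71 (Apoa4) to 0.24 (Apob) with a median of -0.17, and none was called in edgeR (0.00643% of all genes), with 1 at an unadjusted p under 0.05. Scaling each liver to 265 liver-restricted genes that held no member gave -0.39 (Apoa4) to 0.22 (Apoa5) with a median of -0.05, while the median of all genes moved to 0.52 and 0.0275% of all genes were called. These genes were at least 100 times higher in vehicle liver than in vehicle kidney, a ratio that Apoa1, Apoa2, Apoc1 and Apoc3 also exceeded by TPM. A fall shared by such genes is removed by this scaling whatever its source, and the source was not tested. On that scale Apoa1 stood at 4351, 3636 and 4679 CPM in JQ1 recovery livers and 4201 to 4801 CPM in vehicle livers. Apoe had -0.36 ± 0.15 (adjusted p = 0.0995, edgeR). In the JQ1 recovery livers the 14 macrophage markers summed to 132 to 225 CPM, against 208 to 296 CPM in vehicle livers, and their part was not tested.

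**Figure D5:**
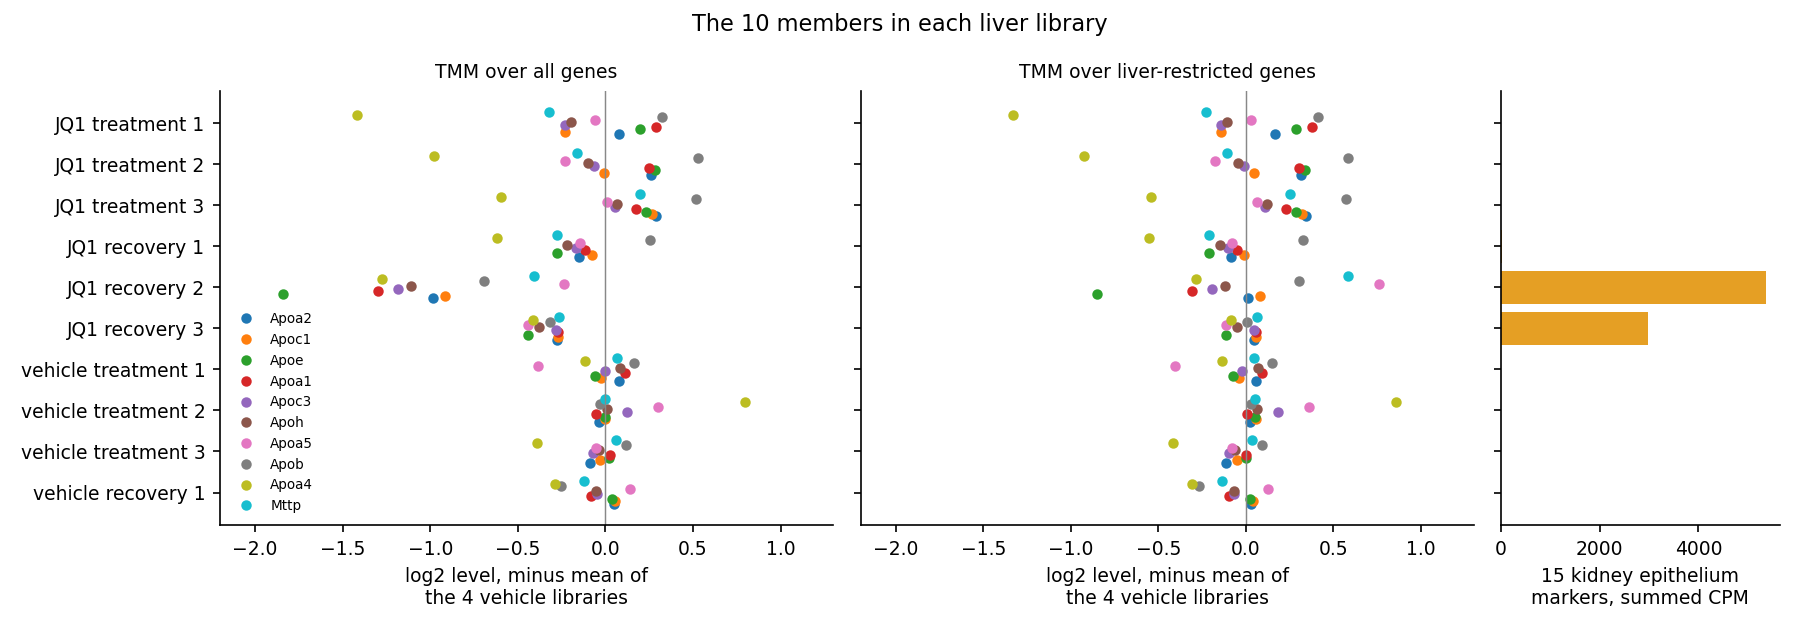
The 10 members in each liver library as log2 CPM minus the mean of the 4 vehicle livers, scaled with TMM over all genes (left) and over the 265 liver-restricted genes (middle), with the summed CPM of the 15 kidney epithelium markers in bars (right). JQ1 recovery replicates 2 and 3 hold 5380 and 2968 CPM of these markers and lie left of 0 on the first scale, while the fold changes of JQ1 recovery from vehicle run from -0.81 to -0.21 on the first scale and from -0.39 to 0.22 on the second.

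JQ1 treatment livers were above JQ1 recovery livers for 9 of 10 members, by up to 0.94 ± 0.29 for Apoe (adjusted p = 0.10, edgeR), with Apoa4 the exception. None was called in edgeR, against 2.29% of all genes tested, 5 had an unadjusted p under 0.05 (19.0% of all genes), and DESeq2 called 4 (Apoa1, Apoa2, Apob and Apoe) against 7.95%. Between these groups 5 of 10 did not overlap (Apoa1, Apoa2, Apob, Apoe and Apoh), all higher, where 21.2% of all genes did not (11.3% higher). Without JQ1 recovery replicate 1 edgeR called 5 members, against 13.9% of all genes, and without replicate 2 it called 3, against 2.59%. Without replicates 2 and 3 Apoe differed by 0.51 ± 0.13 (adjusted p = 0.061, edgeR) and none was called, against 0.887% of all genes. In the same comparison Apom, an HDL protein, and the sterol exporters Abcg5 and Abcg8 were higher in JQ1 treatment livers, by 1.00 ± 0.21, 1.17 ± 0.28 and 1.00 ± 0.21 (adjusted p = 0.032, 0.042 and 0.029, edgeR). Apom stood at 173, 171 and 155 CPM in JQ1 treatment livers, 98.9, 52.3 and 98.2 CPM in JQ1 recovery livers and 117 to 163 CPM in vehicle livers, and its JQ1 recovery values lay below all vehicle livers, replicate 1 included. Without replicates 2 and 3 Apom differed by 0.75 ± 0.16 and was called (adjusted p = 0.026, edgeR), while Abcg5 at 0.56 ± 0.26 (adjusted p = 0.46) and Abcg8 at 0.68 ± 0.21 (adjusted p = 0.19) were not. With all libraries no other gene of the 6 pathway lists was called by edgeR in any liver comparison.

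Whether JQ1 acted differently in the organs was tested as the liver effect minus the kidney effect over all 20 libraries. For the treatment effect no member was called in edgeR, against 0.169% of all 17710 genes tested, 2 of 10 had an unadjusted p under 0.05 (7.74% of all genes), and DESeq2 called 2 (Apob and Apoh) against 0.615%. The 10 include Apoa5, which passed the filter of this fit through its liver reads and had at most 0.348 CPM in any kidney. Apob, lower in kidney and higher in liver, had the smallest p, with a difference between organs of 1.08 ± 0.24 on the log2 scale (adjusted p = 0.098, edgeR). DESeq2 gave it an adjusted p of 0.011. Without liver JQ1 recovery replicates 2 and 3 it was called at 1.07 ± 0.16 (adjusted p = 5.06e-04, edgeR), where 0.609% of all genes were, and also when replicate 1 or 2 alone was left out. Apoh differed by 1.55 ± 0.47 (adjusted p = 0.37, edgeR) and Mttp by 0.02 ± 0.17 (adjusted p = 1.00). Of the pathway genes Pla2g12b was called, at 2.15 ± 0.41 (adjusted p = 0.032), with 49.3, 53.1 and 58.5 CPM in JQ1 treatment livers and 54.6 to 61.7 CPM in vehicle livers beside its lower values in kidney. Those in JQ1 treatment kidneys rest on few reads per library.

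For the recovery effect no member was called in edgeR, against 4.29% of all genes tested, 2 of 10 had an unadjusted p under 0.05 (18.0% of all genes), and DESeq2 called 0 against 8.40%. Of the 10, 9 were below 0, and 6 were without liver JQ1 recovery replicates 2 and 3, which leaves 1 JQ1 recovery liver. Both counts include Apoa5 (-2.12 ± 1.14). It passed the filter of this fit through its liver reads and had at most 0.348 CPM in any kidney. Of the pathway genes edgeR called the assembly gene Surf4 (-0.56 ± 0.13) and, higher, the uptake receptor genes Lrp2 (8.63 ± 1.50), Cubn (7.06 ± 1.44) and Amn (3.47 ± 0.87), which kidney epithelium expresses. Mttp had -0.52 ± 0.17 (adjusted p = 0.094, edgeR) and Apoh -1.12 ± 0.45 (adjusted p = 0.19), and Apoh was called without the vehicle recovery kidney, at -1.65 (adjusted p = 0.025).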

How the data were processed

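Poly(A)-selected RNA of 10 kidneys and 10 livers was sequenced as single-end reads. The authors used fastp 0.20.1 for trimming and Salmon 1.10.0 for quantification, as the submitters' notes and the methods give it. These name both mm10 and a GENCODE release of a later build, so no gene coordinates are given beside the RefSeq promoter windows of GRCm38.p6. Each deposited file lists an estimated count of reads and a TPM for 147833 transcripts. Salmon shares reads among similar transcripts, so transcript shares are estimates. Here estimated counts were summed per gene identifier and rounded. Each member symbol had 1 identifier, while 74 symbols in the files had more than 1.

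Each organ was fitted over its 10 libraries in edgeR 4.0.16 (R 4.3.3; TMM, robust quasi-likelihood, filterByExpr with a minimum count of 10 and total of 15) with 3 conditions, and all 20 libraries in 6 groups for the difference between organs. All 10 members are named, and from each pathway list the called genes, at most 6 per list; some genes that these rules name are not reported here. Alternatives were DESeq2 1.42.0, other scalings (TMM without mitochondrial genes and members, RLE, upper quartile), no filter, length-scaled TPM counts, fewer groups, same-age controls, a replicate block and each library left out. The members and lists were chosen with earlier results of these data known. Most members had under 20 CPM in kidney. The study's single-cell data were not used here.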

Additional observations from a re-analysis of the deposited data

Results flagged for a closer look

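Among 20 groups of 4 vehicle libraries (10 members in each organ), 4 had 1 library whose gap to the next exceeded Dixon's 95% critical value, and chance gives about 1 in 20. Of these, 3 were in the vehicle recovery kidney: Apoa1 at 3.41 CPM (0.828 to 1.06 in the other vehicle kidneys), Apoa2 at 5.78 CPM (0.544 to 0.813) and Apoa5 at 0.158 CPM (0 in the others, so that any single library with a read exceeds the value by construction). That kidney also had the most Alb, 526 reads. The fourth was Apoa4 in liver, at 89.7 CPM in vehicle treatment replicate 2 against 39.4 to 47.6 CPM in the other vehicle livers.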

How the results depend on the processing

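The 4 called differences of members (Apob in JQ1 treatment kidneys against vehicle, and Apob, Apoh and Apoc3 against JQ1 recovery) had the same direction in all 78 values under the alternatives run, and 57 of these were called. Of 1582 values of uncalled differences, 67 had the opposite sign and 38 were called. Leaving out the kidneys with most Alb, JQ1 treatment replicate 1 with the same-age control, or liver JQ1 recovery replicates 2 and 3, the liver-restricted scaling and the share of reads were chosen after seeing the data. The differences of Apoa1 and Apoa2 were smaller than their standard errors in each kidney comparison, and Apoa5 could not be tested there at this depth. The organ differences of Apoa5, fitted over both organs, rest on at most 0.348 CPM in any kidney. Where a value below changed side or sign, the cause was not tested.

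In JQ1 treatment kidneys against vehicle, 1 member was called, against 2 with DESeq2, without the filter, with the vehicle treatment control, without JQ1 treatment replicate 3 and vehicle recovery replicate 1, or without JQ1 treatment replicate 1 with that control, and 0 with length-scaled TPM counts (1 to 2 with single libraries left out). For JQ1 recovery kidneys the count of 0 became 1 with the 2 groups alone and 1 without the kidneys with most Alb (0 to 1). Between JQ1 treatment and JQ1 recovery kidneys 3 became 1 with length-scaled TPM counts (0 to 3). In liver 0 became 1 for JQ1 treatment with DESeq2, with the 2 groups alone or without JQ1 recovery replicates 2 and 3 (0 to 0). It was 0 to 6 for JQ1 recovery with single libraries left out, and between the JQ1 groups 4 with DESeq2 and 1 without the filter (0 to 5). For the organ difference 0 became 2 with DESeq2 and 1 without liver JQ1 recovery replicates 2 and 3 in the treatment effect (0 to 1), and 0 to 1 in the recovery effect. These counts are given without the share of all genes called in each setting, which also moved. For JQ1 recovery livers that share went from 0.0343% to 13.6% without replicate 1. The counts therefore describe how calls depend on the setting and are no result about the members. Mttp-203 took 33.8% of Mttp reads in kidney and 2.65% in liver.

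Over all genes edgeR and DESeq2 called 72 and 284 in JQ1 treatment livers, 5 and 662 in JQ1 recovery livers, 334 and 1158 between them, 1 and 103 in JQ1 recovery kidneys, and 30 and 109 (treatment effect) and 759 and 1487 (recovery effect) between organs.

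Uncalled log2 differences changed sign as follows. In JQ1 treatment kidneys Apoa1 became 0.59 and Apoa2 1.13 with the vehicle treatment control, Apoa2 0.12 without JQ1 treatment replicate 3 and vehicle recovery replicate 1, and Apoa1 0.92, Apoa2 1.29 and Apoe -0.49 without JQ1 treatment replicate 1 with that control. In JQ1 recovery kidneys against the vehicle recovery kidney alone Apoa2 became -1.32, Apoa4 -0.17, Apob 0.14, Apoc3 -0.22 and Apoh -0.34, and Apoa1 became 0.45 without the kidneys with most Alb, where it became -1.05 between the JQ1 groups. In JQ1 recovery livers the liver-restricted scaling gave Apoa5 0.22, Apob 0.21, Apoc1 0.042 and Mttp 0.18, the vehicle recovery control gave Apob 0.055 and leaving out replicates 2 and 3 gave Apob 0.24. Between the JQ1 groups that scaling gave Apoa5 -0.27 and Mttp -0.20. Without liver JQ1 recovery replicates 2 and 3 the organ difference became -0.0008 for Mttp (treatment), and 0.14 for Apoa1, 0.33 for Apob and 0.24 for Apoe (recovery).

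With single libraries left out, the sign of these log2 differences varied. In kidney Apoa1 ran from -1.32 to 0.60, Apoa2 from -1.47 to 1.14, Apoc1 from -1.03 to 0.33 and Apoe from -0.42 to 0.58 for JQ1 treatment, Apoa1 from -0.99 to 0.45 and Apoa2 from -0.34 to 1.82 for JQ1 recovery, and Apoa1 from -1.05 to 0.87 and Apoc1 from -0.54 to 0.82 between them. In JQ1 treatment livers Apoc1 ran from -0.12 to 0.13 and Mttp from -0.24 to 0.023. The organ difference in the treatment effect ran from -0.35 to 1.56 for Apoa1, -0.91 to 1.71 for Apoa2, -0.66 to 0.67 for Apoa4, -3.47 to 2.32 for Apoa5, -0.31 to 1.04 for Apoc1, -0.35 to 0.64 for Apoe and -0.14 to 0.13 for Mttp, and in the recovery effect from -0.95 to 0.50 for Apoa1, -0.42 to 0.0945 for Apob, -0.0946 to 0.31 for Apoc1 and -0.46 to 0.18 for Apoe.

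Deviations of samples with the same replicate number correlated from -0.34 to 0.27 between groups within kidney. Between kidney and liver of the same group and number they correlated from -0.193 to 0.087. The labels do not say whether same-numbered organs came from the same mouse. With the number as a replicate block the call of Apob in JQ1 treatment kidneys against vehicle remained. Against JQ1 recovery the calls of Apob and Apoh remained and that of Apoc3 was lost. The share of all genes called in these fits is not given here. In these block fits Apoa1 stood at 0.0142 and Apoa2 at 0.0033 in JQ1 treatment kidneys, and the organ difference in the treatment effect at 0.16 for Apoe and -0.0090 for Mttp.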

Other observations

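The genes whose log2 CPM was most like that of the called members over the 10 kidney libraries were, by Pearson's r and as a description, the phosphate transporter Slc34a3 (0.96), Gria3 (0.96) and Slc35a2 (0.95) for Apob, Klc4 (0.98), Gm15889 (0.98) and Cyp4a12a (0.98) for Apoh, and Atg13 (0.97) and G6pc3 (0.96) for Apoc3, of 8407 or 8408 genes searched. The libraries share their groups, so the groups alone can give such values. For Apoa2, which was not called, the second most similar gene in kidney was Alb (0.90). For Apoa1, also not called, Alb was not among the 3 most similar genes.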
